A study of Bos taurus with 12 samples.

Results

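The 100 genes described here were the most variable genes of moderate abundance in caruncular endometrium of Angus heifers. They were chosen from a table of raw gene counts for 27270 Ensembl genes in 12 RNA-Seq libraries. A gene entered the ranking when its mean raw count over the 12 libraries was at least 20 and under 100, which 592 genes met. A mean count of 100 or more was found in 189 genes, so these 592 were among the more abundant genes of the table. Counts were divided by the total of their library and multiplied by 1000000 (CPM), and the 100 genes with the highest ratio of standard deviation to mean over the libraries became members, leaving 492 others of the same abundance. The choice took no account of the groups, but it used every value of the members, so their levels are given as a description.

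Caruncles are the aglandular knobs of the ruminant endometrium at which the placenta later attaches. In cattle the elongating conceptus signals its presence to this tissue with interferon tau, the luteolytic release of prostaglandin is held back, and the corpus luteum persists. Where tissue is sampled whole, each level of RNA is an average over epithelium, stroma, vessels and immune cells. A gene can therefore differ between animals because a cell type is more or less frequent or because its cells hold more or less RNA, and these cannot be told apart in bulk tissue.

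The heifers were 2 to 3 years old, and their estrous cycles had been synchronized with prostaglandin F2 alpha. The 4 pregnant (P) heifers, BEND73, BEND76, BEND78 and BEND79, had been bred and had a conceptus in the uterus when tissue was taken, on Day 15 to 17 of gestation. The 4 non-pregnant (NP) heifers, BEND72, BEND74, BEND75 and BEND77, had also been bred but held no conceptus. The 4 cyclic (C) heifers, BEND03, BEND04, BEND05 and BEND06, were not bred, and their day of the cycle is not given in the sources used here. Their numbers form a run of their own, so any other difference between the cyclic and the bred heifers cannot be told apart from breeding. Each library was made from the caruncles of 1 heifer with a stranded mRNA kit.

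Gene counts summed to between 95618 (P BEND79) and 160862 (NP BEND77) per library, so that 1 count stood for 6.22 to 10.5 CPM. These totals are far below the average numbers of raw reads that the paper reports for the groups, most of which mapped uniquely. They are therefore not the depth of the sequencing, and the reason for the gap was not tested. The members held between 2.88% (NP BEND75) and 3.91% (C BEND06) of the counts of a library. No table used here links the Ensembl IDs to gene symbols (0 of 27270 matched). Members are therefore given by their IDs, without their functions, and the tissue could not be checked against marker genes of its cell types. The strand setting of the counting is not stated, and had it been opposite to that of the kit, no gene's level would be certain.

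Some libraries stood apart from their label over the members, as measured by the Pearson correlation (r) of log2 CPM after each member was centred on its own mean over the 12 libraries. Non-pregnant BEND74 had a mean r of -0.46 with the other non-pregnant libraries and of 0.38 with the pregnant libraries, and its nearest library was pregnant BEND78 (r = 0.79). The mean r with the rest of its own group was -0.14 for pregnant BEND76 and -0.15 for cyclic BEND05. For non-pregnant BEND77, whose nearest library was cyclic BEND04 (r = 0.39), it was -0.12. That value was negative through an r of -0.55 with BEND74, beside 0.21 with BEND72 and -0.02 with BEND75. Non-pregnant BEND72 and BEND75, whose means also include BEND74, had a mean r of -0.003 and 0.04 with their group. Centring alone makes r between unrelated libraries slightly negative. The other cyclic libraries resembled each other, with an r of 0.68 between BEND03 and BEND06, of 0.61 between BEND03 and BEND04, and of 0.49 between BEND04 and BEND06. The library labelled non-pregnant BEND74 thus resembled another group more than that of its label. Over the members this also held, at lower r, for BEND77 (mean r of 0.15 with cyclic libraries), BEND76 and BEND72 (0.05 each with cyclic libraries). It held for BEND05 as well (0.06 with non-pregnant libraries). Over the other genes of the same abundance, BEND74 had a mean r of -0.40 with its group and 0.23 with pregnant libraries. Its nearest library was again BEND78 (r = 0.58). BEND76 and BEND05 also resembled another group more there, with a mean r of -0.11 and -0.10 with their groups. With non-pregnant libraries these were -0.06 and -0.002. BEND77 and BEND72 had their highest mean r there with their own group (-0.03 and 0.03, against -0.04 and -0.11 with cyclic libraries). Nothing in the sources used here shows whether the labels of these libraries hold. Every value for the groups assumes that they do. Between-group shares, median fold changes, group overlaps and edgeR calls are also given with some of these libraries left out.

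The ratio of standard deviation to mean ran from 0.556 to 2.40 over the members, with a median of 0.731. The other genes of the same abundance had ratios from 0.0802 to 0.555, with a median of 0.334. Counting error alone would have given a median ratio of 0.168 for the members and 0.167 for the others. Counting error made up between 0.373% and 15.4% of the squared ratio of a member (median 4.85%), and a median of 23.8% for the others. The last genes inside the limit were ENSBTAG00000000784 (0.557) and ENSBTAG00000008224 (0.556), and the first outside were ENSBTAG00000016738 (0.555) and ENSBTAG00000054055 (0.555). The limit therefore fell inside an unbroken range of ratios. The plot of the ratio against the mean count shows this range and the members above it.

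**Figure D1:**
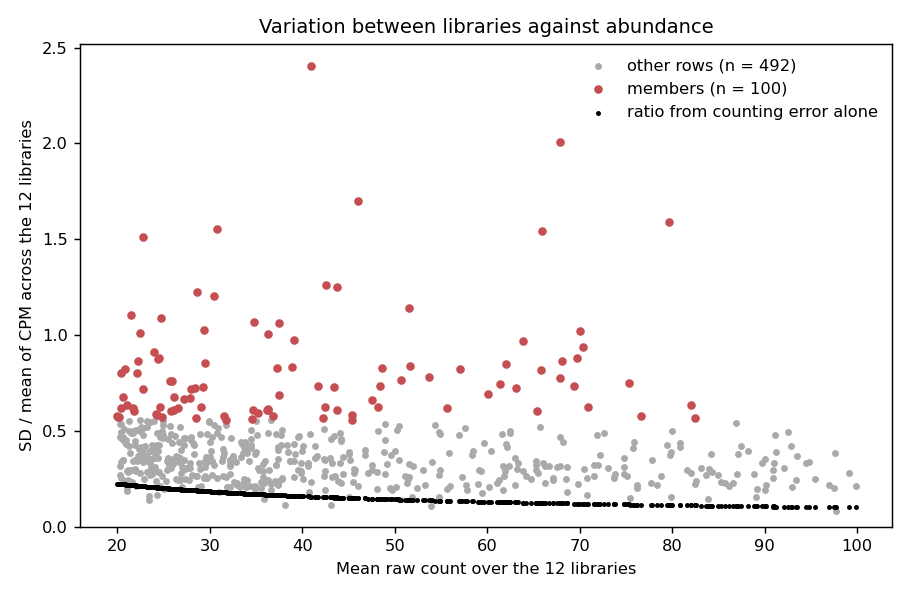
Ratio of standard deviation to mean of CPM over the 12 libraries (vertical axis) against the mean raw count (horizontal axis) for the 592 genes of moderate abundance. Red points are the 100 members, grey points the 492 other genes and small black points the ratio that counting error alone would give. Members lie at all mean counts up to 82.5, and 10 of them have a ratio of 1.22 or more.

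The highest ratio belonged to ENSBTAG00000002527 (2.40). Its cyclic libraries BEND03, BEND04, BEND05 and BEND06 had 117, 43.0, 72.7 and 54.0 CPM, and all values below follow that order of libraries. Its non-pregnant libraries BEND72, BEND74, BEND75 and BEND77 had 148, 138, 156 and 131 CPM, and its pregnant libraries BEND73, BEND76, BEND78 and BEND79 had 142, 190, 128 and 3368 CPM. One library, pregnant BEND79, with 322 counts, set the ratio of this gene, and no cyclic library reached any library of the bred heifers. ENSBTAG00000025441 (ratio 2.01) was high in the same library, at 4675 CPM, where the other pregnant libraries had 393, 269 and 392 CPM. Its cyclic libraries had 200, 275, 331 and 216 CPM and its non-pregnant libraries 171, 224, 293 and 180 CPM, so that without BEND79 all libraries lay between 171 and 393 CPM. BEND79 was also the library with the smallest total count, and the part of that in these levels was not tested.

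ENSBTAG00000003569 (ratio 1.70) was high in a cyclic and a non-pregnant library. It had 275, 94.5, 2311 and 171 CPM in cyclic, 342, 86.1, 919 and 31.1 CPM in non-pregnant and 94.4, 158, 88.1 and 41.8 CPM in pregnant libraries. Cyclic BEND05 and non-pregnant BEND75 held its top levels, and the groups overlapped. ENSBTAG00000013103 (ratio 1.25) was high in the same libraries and in BEND72, with 133, 155, 889 and 207 CPM in cyclic, 568, 112, 1643 and 211 CPM in non-pregnant and 94.4, 230, 56.0 and 167 CPM in pregnant libraries. Within the cyclic group, BEND05 was thus far above the other heifers for both genes.

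ENSBTAG00000052099 (ratio 1.59) and ENSBTAG00000007554 (ratio 1.55) shared another pattern. ENSBTAG00000052099 had 16.7, 17.2, 129 and 98.9 CPM in cyclic, 46.7, 1464, 166 and 49.7 CPM in non-pregnant and 3098, 39.4, 2218 and 492 CPM in pregnant libraries. ENSBTAG00000007554 had 25, 34.4, 16.2 and 0 CPM in cyclic, 7.78, 810, 9.78 and 12.4 CPM in non-pregnant and 1203, 19.7, 504 and 460 CPM in pregnant libraries, and the 0 counts in BEND06 allow a level of up to 27.0 CPM. Both genes were high in non-pregnant BEND74 and in every pregnant library except BEND76, which lay among the low non-pregnant and cyclic libraries.

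ENSBTAG00000017023 (ratio 1.54) had 308, 387, 64.6 and 1232 CPM in cyclic, 194, 121, 577 and 2642 CPM in non-pregnant and 62.9, 32.8, 96.1 and 167 CPM in pregnant libraries. ENSBTAG00000005478 (ratio 1.51) had 142, 103, 121 and 522 CPM in cyclic, 54.4, 25.8, 48.9 and 845 CPM in non-pregnant and 39.3, 78.8, 32.0 and 0 CPM in pregnant libraries, where the 0 counts in BEND79 allow up to 31.4 CPM. Both were highest in non-pregnant BEND77 and next highest in cyclic BEND06. All 4 pregnant libraries of ENSBTAG00000005478 lay below all 4 cyclic libraries, while ENSBTAG00000017023 overlapped through the low level in BEND05.

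ENSBTAG00000049029 (ratio 1.26) had 1175, 516, 24.2 and 935 CPM in cyclic, 202, 34.5, 68.5 and 839 CPM in non-pregnant and 15.7, 151, 32.0 and 20.9 CPM in pregnant libraries. ENSBTAG00000019244 (ratio 1.22) had 767, 516, 24.2 and 783 CPM in cyclic, 109, 25.8, 58.7 and 224 CPM in non-pregnant and 31.5, 26.3, 248 and 31.4 CPM in pregnant libraries. In both, cyclic BEND05 stood as low as the pregnant libraries while the other cyclic libraries were high. The plot of these 10 members by group shows that the library at the top differs from gene to gene.

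**Figure D2:**
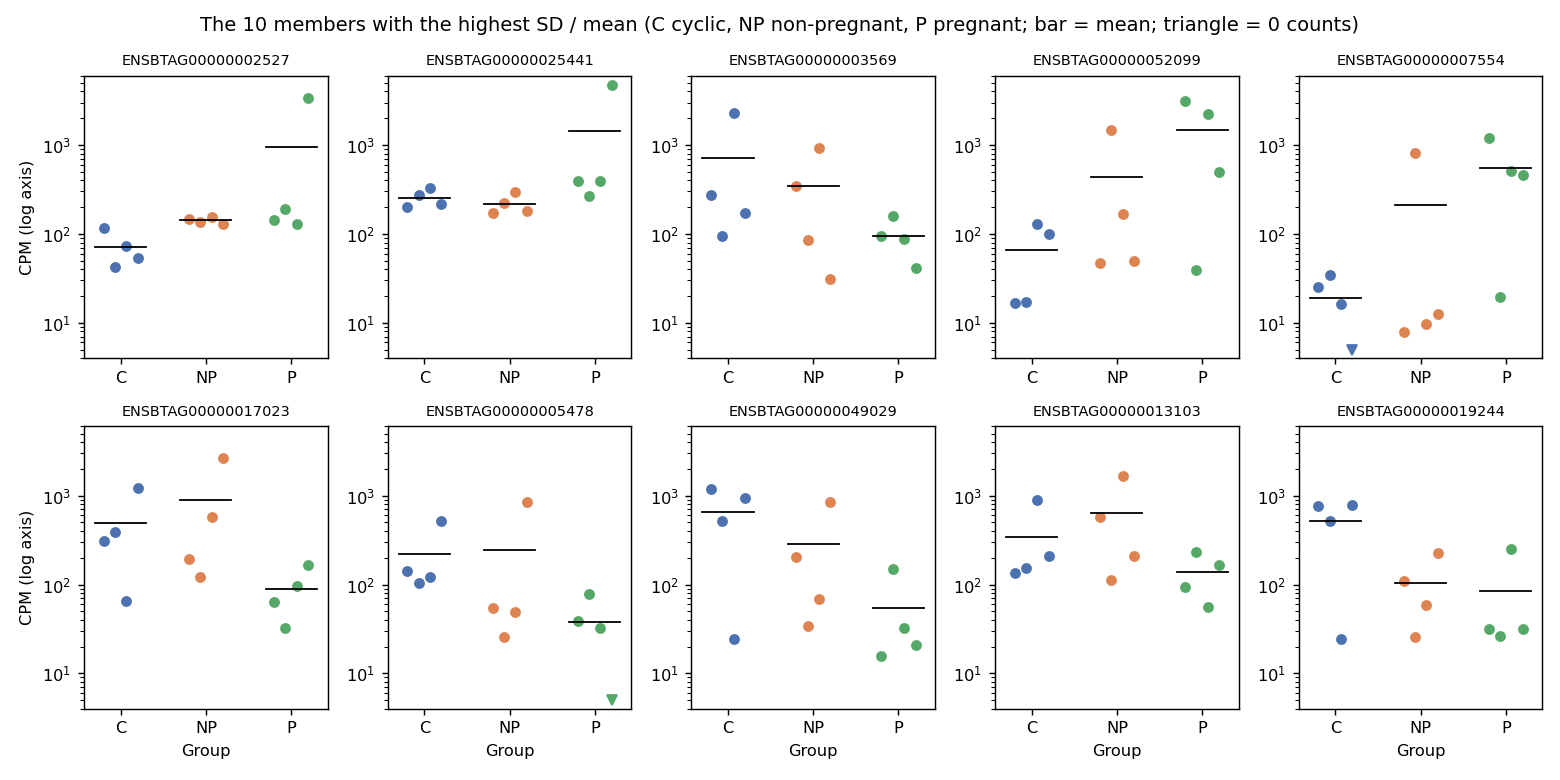
Levels of the 10 members with the highest ratio of standard deviation to mean, in CPM on a log axis, by group (C cyclic, NP non-pregnant, P pregnant). Each point is 1 library, the bar is the mean of 4 libraries and a triangle marks a library with 0 counts. A single pregnant library at 3368 and 4675 CPM sets the first 2 genes apart, whereas ENSBTAG00000052099 and ENSBTAG00000007554 are high in 3 pregnant libraries and 1 non-pregnant library.

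A single library stood far above the rest in a minority of the members. Such a library raises the ratio by which members were chosen, so the rule itself favours more of these genes among the members. In 17 members the highest library had at least 2 times the level of the next, against 1 of the 492 other genes. That library was pregnant BEND79 for 7 members, cyclic BEND05 and non-pregnant BEND77 for 3 each, and cyclic BEND06, non-pregnant BEND72, non-pregnant BEND75 and pregnant BEND76 for 1 each. Counting every member by its highest library, C BEND06 led with 14, followed by NP BEND77 with 13 and P BEND79 with 12, and C BEND04 was last with 3. P BEND79 was also the lowest library of 17 members, more than any other library, with NP BEND75 lowest for 15 and NP BEND74 for 12. Only 5 members had 0 counts in any library.

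The members varied with each other in 5 sets. Sets were made by average linkage of log2 CPM (prior count 2) on 1 minus r over the 12 libraries, divided at a distance of 0.4, and those of at least 5 members were described. They held 59 members, and 41 members belonged to none. Of the 4950 pairs of members, 568 (11.5%) had an r of at least 0.6, where this share was 7.33% among pairs of the other genes. An r of -0.6 or lower was found for 480 pairs (9.70%), against 2.86% among the other genes. All these correlations are over the same 12 libraries and share their depth. Counting error draws r towards 0 and was a larger part of the variation of the others than of the members. Its part in these differences was not tested. The map of the members by library and the plot of the sets show which libraries make each set.

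**Figure D3:**
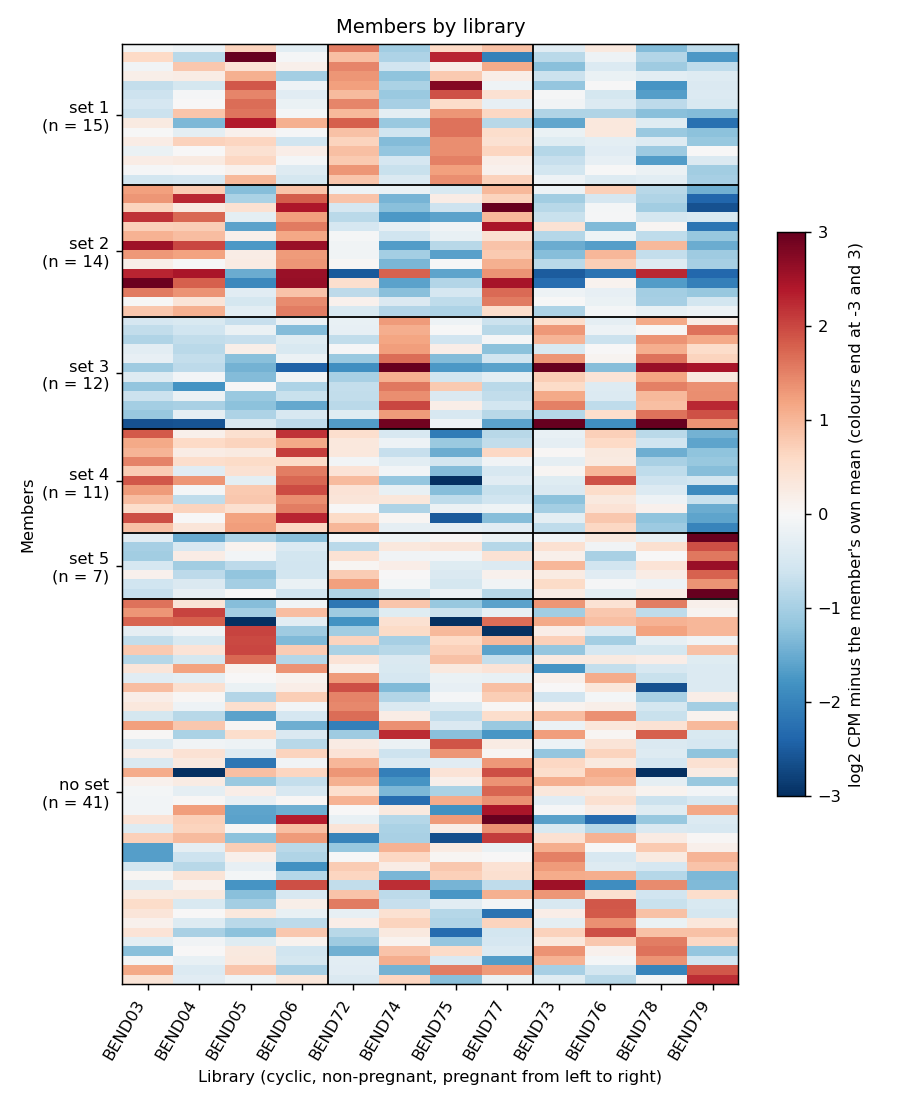
Level of each of the 100 members (rows) in each of the 12 libraries (columns), as log2 CPM minus the member's own mean, with red above and blue below it. Black lines divide the groups and the 5 sets, and the 41 members of no set are at the bottom. Set 3 is red in non-pregnant BEND74 and in pregnant BEND73, BEND78 and BEND79, and set 5 in pregnant BEND79.

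Set 1, of 15 members with a mean r of 0.72 among them, was high in cyclic BEND05 and in non-pregnant BEND72 and BEND75. Its mean deviation from the members' own means, in log2 units, was 1.18 in BEND05, 1.13 in BEND72 and 1.37 in BEND75, and each of the 15 members was above its own mean in all of these. The other cyclic libraries lay at -0.13, -0.05 and -0.15, and non-pregnant BEND77 at 0.18. The lowest levels were those of non-pregnant BEND74 (-0.86) and pregnant BEND73 (-0.64), BEND78 (-0.94) and BEND79 (-0.89), with pregnant BEND76 at -0.20. Set 1 thus divided the cyclic and non-pregnant groups within themselves, while the pregnant libraries were all below 0.

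The most central members of set 1 were ENSBTAG00000013472, ENSBTAG00000013103 and ENSBTAG00000048674, with a mean r of 0.78, 0.77 and 0.76 to the rest of the set. ENSBTAG00000013472 had 117, 180, 541 and 144 CPM in cyclic, 373, 77.5, 743 and 261 CPM in non-pregnant and 181, 125, 48.0 and 136 CPM in pregnant libraries. ENSBTAG00000048674 had 225, 232, 299 and 180 CPM in cyclic, 334, 129, 567 and 218 CPM in non-pregnant and 110, 158, 48.0 and 136 CPM in pregnant libraries. In ENSBTAG00000048674 every pregnant library lay below every cyclic library, and in ENSBTAG00000013472 the groups overlapped.

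Set 2, of 14 members with a mean r of 0.70, was high in cyclic BEND03 (1.34), BEND04 (1.21) and BEND06 (1.66) and in non-pregnant BEND77 (1.35). Every other library lay below 0, from -1.43 in pregnant BEND79 to -0.28 in pregnant BEND76. Cyclic BEND05 was at -0.67, inside the range of the pregnant libraries. The 3 most central members were ENSBTAG00000049029, ENSBTAG00000017011 and ENSBTAG00000053534, with a mean r of 0.80, 0.77 and 0.76 to the rest of the set.

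ENSBTAG00000017011 was the member whose variation lay most between the groups. It had 633, 576, 331 and 684 CPM in cyclic, 288, 189, 254 and 423 CPM in non-pregnant and 157, 269, 168 and 125 CPM in pregnant libraries. The cyclic libraries were all above the pregnant libraries, at means of 556 ± 156 and 180 ± 62.2 CPM (SD, n = 4 each), and the non-pregnant libraries overlapped both groups. ENSBTAG00000053534 had 700, 610, 178 and 423 CPM in cyclic, 124, 86.1, 156 and 771 CPM in non-pregnant and 204, 190, 104 and 94.1 CPM in pregnant libraries, with BEND05 again among the low libraries.

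Set 3, of 12 members with a mean r of 0.75, was high in non-pregnant BEND74 (1.67) and in pregnant BEND73 (1.22), BEND78 (1.46) and BEND79 (1.27). The cyclic libraries lay close together, from -0.90 to -0.76, and non-pregnant BEND72, BEND75 and BEND77 were at -0.79, -0.35 and -0.81. Pregnant BEND76 was at -0.39. The set therefore separated 3 pregnant libraries and 1 non-pregnant library from the rest, and its highest library was a non-pregnant one.

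The most central members of set 3 were ENSBTAG00000016546, ENSBTAG00000003711 and ENSBTAG00000007554, described above. ENSBTAG00000016546 had 175, 249, 121 and 171 CPM in cyclic, 163, 775, 205 and 162 CPM in non-pregnant and 645, 210, 568 and 774 CPM in pregnant libraries. ENSBTAG00000003711 had 75, 85.9, 88.9 and 117 CPM in cyclic, 85.6, 370, 97.8 and 149 CPM in non-pregnant and 330, 92.0, 416 and 356 CPM in pregnant libraries. For both genes BEND74 fell among the high pregnant libraries and BEND76 among the cyclic libraries.

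Set 4, of 11 members with a mean r of 0.77, had positive means in all cyclic libraries, at 1.24 in BEND03, 0.25 in BEND04, 0.61 in BEND05 and 1.55 in BEND06. Non-pregnant BEND72 (0.43) and pregnant BEND76 (0.68) were also above 0. The lowest libraries were non-pregnant BEND75 (-1.45) and pregnant BEND79 (-1.34), and the other bred heifers lay between -0.72 and -0.36. For 8 of the 11 members, cyclic BEND06 was the highest library.

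The most central members of set 4 were ENSBTAG00000015828, ENSBTAG00000003849 and ENSBTAG00000004976. ENSBTAG00000015828 had 892, 344, 622 and 1439 CPM in cyclic, 482, 301, 137 and 218 CPM in non-pregnant and 260, 532, 264 and 83.7 CPM in pregnant libraries. ENSBTAG00000003849 had 833, 249, 315 and 1052 CPM in cyclic, 319, 155, 39.1 and 118 CPM in non-pregnant and 189, 374, 120 and 73.2 CPM in pregnant libraries. Cyclic BEND04 lay below pregnant BEND76 for both, so the groups overlapped. In ENSBTAG00000004976 the cyclic libraries, at 575, 387, 412 and 576 CPM, were above all non-pregnant libraries (319, 224, 108 and 143 CPM), and pregnant BEND76 (388 CPM) was just above BEND04.

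Set 5, of 7 members with a mean r of 0.71, was the set of pregnant BEND79. Its mean deviation there was 2.47, a level 5.55 times the members' own means, and BEND79 was the highest library of all 7 members. The cyclic libraries lay between -0.61 and -0.55, the non-pregnant libraries between -0.26 and 0.11, and the other pregnant libraries at 0.37, -0.29 and 0.14. Without BEND79 the mean r of the 7 members was 0.27, with a lowest pair at -0.32, so their relation rested on that library. For the other sets, with their members kept fixed, the mean r was 0.64 or more whichever single library was left out. They were formed from these same values, so this does not show that they hold. With sets formed anew, 8 of 15 members of set 1 stayed together without non-pregnant BEND75 and 8 of 14 of set 2 without cyclic BEND06. For set 3 these were 7 of 12 without cyclic BEND03, and for set 4 they were 8 of 11 without cyclic BEND05. The other central member of set 5, beside ENSBTAG00000002527 and ENSBTAG00000025441, was ENSBTAG00000012589. It had 133, 85.9, 105 and 126 CPM in cyclic, 202, 224, 147 and 143 CPM in non-pregnant and 401, 125, 264 and 1255 CPM in pregnant libraries. Each non-pregnant library of that gene was above each cyclic library.

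**Figure D4:**
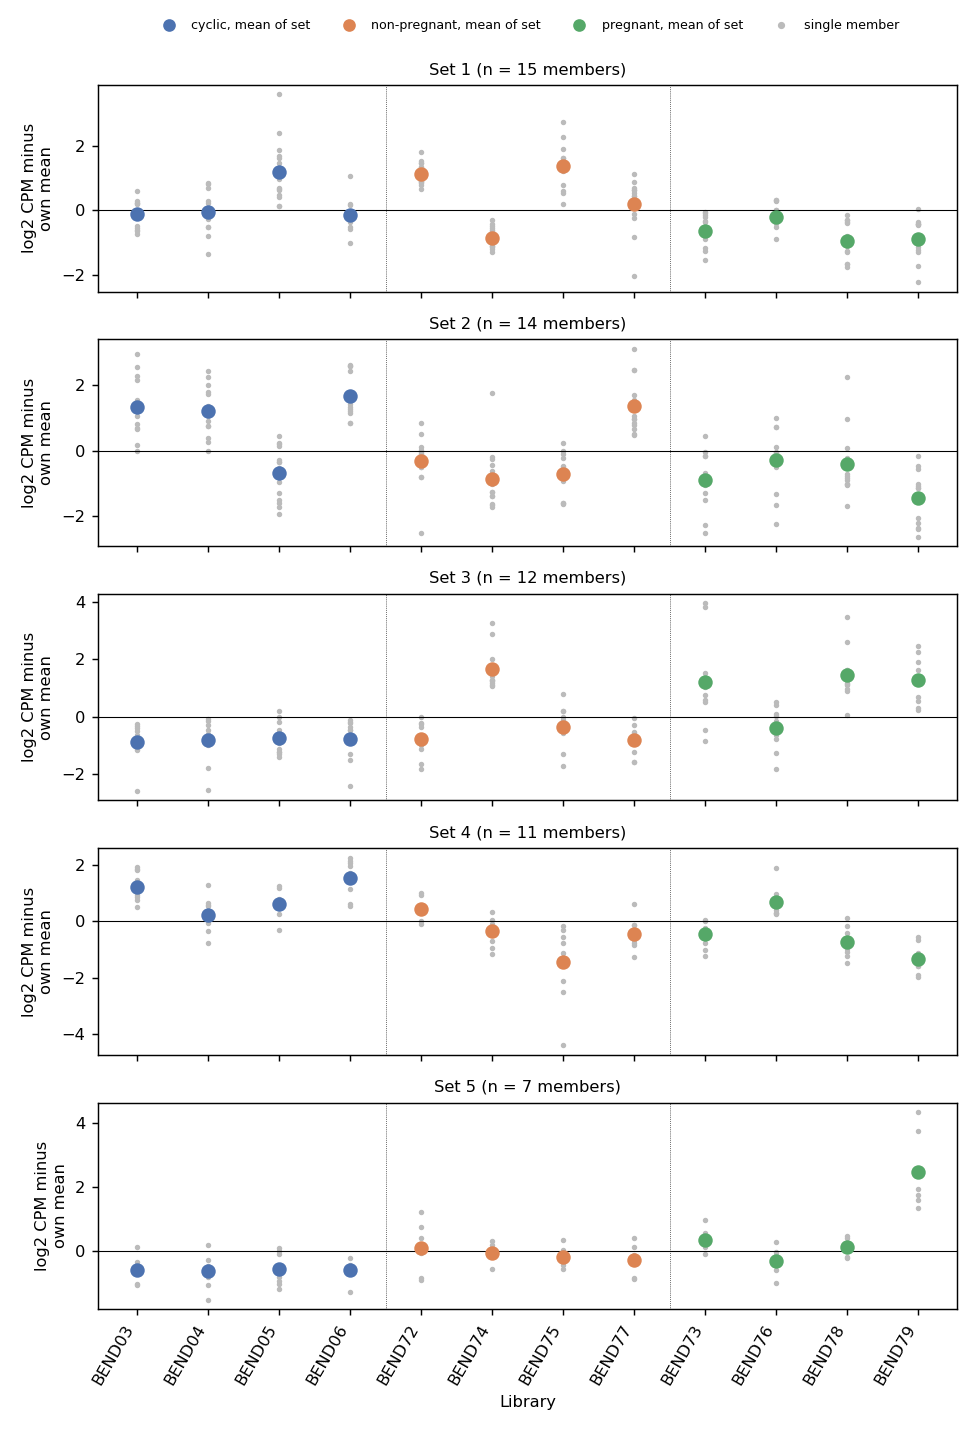
Mean level of each set in each library, as log2 CPM minus the member's own mean, coloured by group, with grey points for single members. Sets 1 and 2 divide the cyclic and non-pregnant libraries within their groups, set 3 places non-pregnant BEND74 with 3 pregnant libraries, set 4 is above 0 in all 4 cyclic libraries, and set 5 stands out in pregnant BEND79 at 2.47.

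The sets were not independent of each other. Over the 12 libraries, the mean of set 1 had an r of -0.71 and that of set 2 an r of -0.68 with the mean of set 3. Sets 2 and 4 had an r of 0.63, sets 3 and 5 of 0.61 and sets 3 and 4 of -0.60. Set 5 had an r of -0.62 with each of sets 2 and 4, whereas sets 1 and 2 were almost unrelated (r = 0.07). Genes outside the members varied with or against the sets. Among 681 other genes, the 492 of the same abundance and 189 with a mean count of 100 or more, an r of at least 0.7 with the set mean was found for 62 with set 1, 45 with set 2, 27 with set 3 and 27 with set 4. With set 5 it was found for 2. An r of -0.7 or lower was found for 23, 11, 84, 5 and 43 of these genes with sets 1 to 5, so that sets 3 and 5 had more such genes varying against them than with them.

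Each of the 41 members of no set had at least 1 other member with an r of 0.62 or more, with a median best r of 0.79. A best r is the highest of many over only 12 libraries, and it was not taken for the other genes. It therefore does not show that these 41 members varied with others. Among them, 9 were members with a single dominating library. ENSBTAG00000024643 was the most variable of them after ENSBTAG00000017023, with 175, 249, 56.6 and 935 CPM in cyclic, 132, 1128, 78.2 and 131 CPM in non-pregnant and 1439, 52.6, 648 and 83.7 CPM in pregnant libraries. It was high in at least 1 heifer of every group. ENSBTAG00000000784 was high in non-pregnant BEND72 (568 CPM) and pregnant BEND76 (506 CPM) and lay between 136 and 252 CPM in all other libraries. Both genes varied mostly within the groups, with only a small part of the variation of their log2 CPM between the group means.

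How far the members varied by group was measured as the share of the sum of squares of log2 CPM that lay between the 3 group means. The median share was 33.3% for the members, 18.9% for the other genes of the same abundance and 20.01% for the 1606 genes that were tested. Counting error, which is part of the variation within groups, was a larger part of the variation of the others than of the members, and its part in this difference was not tested. The share exceeded 50% in 11 members (11%) and in 40 of the others (8.13%), and it was under 20% in 31 members (31%) and in 257 of the others (52.2%). Pooled over all members, 30.8% of the sum of squares lay between the groups, 30.4% within the non-pregnant, 20.6% within the pregnant and 18.2% within the cyclic group. For the others these parts were 23.2%, 31.5%, 27.5% and 17.9%. Most of the variation of the members was thus within the groups, and the non-pregnant group held the most of it. Group labels unrelated to the levels would also leave most of the variation within the groups. The majority within groups therefore does not show that the members vary little by group.

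**Figure D5:**
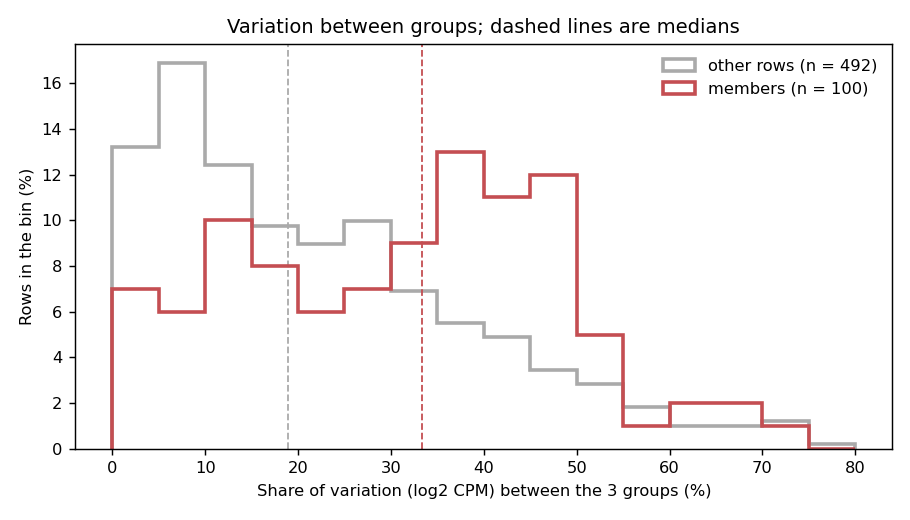
Share of the variation of log2 CPM that lay between the means of the 3 groups (horizontal axis, %), as the percentage of genes in each bin of 5 (vertical axis), for the 100 members in red and the 492 other genes of the same abundance in grey. Dashed lines mark the medians, 33.3% for the members and 18.9% for the others. The members are shifted to the right of the others below 50%, and few genes of either list exceed 50%.

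The share depended on single libraries. Without non-pregnant BEND74 the median was 43.1% for the members and 28.9% for the others, and without pregnant BEND76 it was 38.9% and 23.9%. Without both, a choice made after the data were seen, it was 48.4% and 36.8%. For the means of the sets, the share was 37.3% for set 1, 43.1% for set 2, 47.9% for set 3, 50.01% for set 4 and 41.0% for set 5. Without BEND74 it was 74.3% for set 3 and 64.1% for set 1, and without BEND76 it was 65.3% for set 3, 65.4% for set 4 and 56.2% for set 5. The share of set 2 was 67.1% without cyclic BEND05 and 59.8% without non-pregnant BEND77, that of set 1 was 42.3% without BEND05, and that of set 5 was 73.9% without pregnant BEND79. These libraries stood apart from their groups in the sets formed from the same values, so a higher share without them follows from that choice. Other libraries lowered the share when they were left out. It was 29.5% for set 1 and 40.01% for set 3 without pregnant BEND78, and 33.7% for set 2 and 39.6% for set 4 without cyclic BEND06. For set 5 the lowest share was 37.8%, without cyclic BEND04.

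Members with the highest share, beside ENSBTAG00000017011 (72.9%), were ENSBTAG00000004273 (69.6%) and ENSBTAG00000009293 (65.8%). ENSBTAG00000004273, a member of no set, had 375, 430, 356 and 495 CPM in cyclic, 210, 500, 196 and 317 CPM in non-pregnant and 574, 815, 1353 and 722 CPM in pregnant libraries. Its pregnant libraries were above all others, BEND76 included. ENSBTAG00000009293, of set 4, had 725, 369, 380 and 378 CPM in cyclic, 233, 198, 166 and 230 CPM in non-pregnant and 204, 302, 120 and 105 CPM in pregnant libraries, so that every cyclic library was above every bred heifer.

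Members with the lowest share were ENSBTAG00000024643 (0.993%), ENSBTAG00000019278 (1.205%) and ENSBTAG00000013411 (1.58%). ENSBTAG00000019278 had 167, 215, 154 and 81.0 CPM in cyclic, 257, 51.7, 274 and 230 CPM in non-pregnant and 362, 355, 80.1 and 52.3 CPM in pregnant libraries. ENSBTAG00000013411 had 100.0, 129, 679 and 98.9 CPM in cyclic, 264, 138, 372 and 112 CPM in non-pregnant and 236, 236, 224 and 146 CPM in pregnant libraries. Low and high libraries stood side by side within each group of ENSBTAG00000019278, and in ENSBTAG00000013411 the top level came from cyclic BEND05.

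The groups were also compared by edgeR's quasi-likelihood test in a single fit of the 12 libraries, to ask which genes differ with pregnancy and with breeding. All 100 members were among the 1606 genes tested. The rule favoured genes with large differences of any kind, so the counts below are a description and support nothing about the members. A call required a fold change over 2 together with an FDR under 0.05. The comparisons P vs. C and P vs. NP share the pregnant libraries, and NP vs. C shares the others with them.

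Between pregnant and cyclic heifers 0 members were called by edgeR, where 0.187% of all genes tested were called. At an unadjusted p under 0.05 from edgeR there were 50 members, where 16% of all genes tested passed. Of these, 23 were higher in pregnant heifers, beside 7.97% of all genes tested, and 27 were lower, beside 8.03%. The smallest FDR of a member was 0.0554, from edgeR, for ENSBTAG00000017011, whose log2 fold change was -1.55 (standard error 0.30). All members of sets 1, 2 and 4 had negative and all of sets 3 and 5 positive log2 fold changes. Their medians were -0.96 for set 1, -1.58 for set 2, 1.79 for set 3, -1.28 for set 4 and 1.54 for set 5, where the median over all genes tested was 0.01. Leaving out single libraries, as chosen after the data were seen, moved 2 of these medians by more than 1.5 times, that of set 1 to -0.29 without cyclic BEND05 and that of set 5 to 0.75 without pregnant BEND79. An unadjusted p under 0.05 was found for 5 of 15, 9 of 14, 11 of 12, 9 of 11 and 6 of 7 members of sets 1 to 5. The groups did not overlap in 7 members that were higher and 9 that were lower in pregnant heifers, beside 3.99% and 4.55% of all genes tested. Without pregnant BEND76 these counts were 18 and 23, beside 7.85% and 12%, and without cyclic BEND05 they were 13 and 22, beside 7.47% and 10.4%.

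Between pregnant and non-pregnant heifers 0 members were called by edgeR, where 0% of all genes tested were called, and the smallest FDR of a member was 0.541. At an unadjusted p under 0.05 there were 23 members, beside 7.29% of all genes tested. Of the members, 7 were higher in pregnant heifers (2.86% of all genes tested) and 16 were lower (4.42%). Among them, 11 belonged to set 1 and were lower, and 4 belonged to set 5 and were higher. None of set 3 or set 4 was among them. The median log2 fold changes were -1.22 for set 1, -0.46 for set 2, 0.79 for set 3, 0.06 for set 4 and 1.25 for set 5, with -0.02 over all genes tested. The median of set 3 was 1.70 without non-pregnant BEND74, 0.50 without non-pregnant BEND72, and 2.05 without BEND74 and pregnant BEND76. That of set 2 was 0.05 without non-pregnant BEND77 and -0.82 without BEND76, that of set 4 lay between -0.37 and 0.35 with a single library left out, and that of set 5 was 0.11 without pregnant BEND79. The groups did not overlap in 2 members that were higher and 1 that was lower in pregnant heifers, beside 1.12% and 1.06% of all genes tested. Without BEND74 they did not overlap in 9 and 16 members, beside 5.29% and 10.9% of all genes tested, and without BEND76 in 5 and 5, beside 2.12% and 3.42%. Without both, the counts were 18 and 25, beside 9.22% and 17.7%.

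Between non-pregnant and cyclic heifers 0 members were called by edgeR, where 0.0623% of all genes tested were called, and the smallest FDR of a member was 0.311. At an unadjusted p under 0.05 there were 22 members, beside 8.34% of all genes tested. Of the members, 6 were higher in non-pregnant heifers (3.3% of all genes tested) and 16 were lower (5.04%). They included 8 members of set 4 and 6 of set 2, all lower, and 3 of set 3, all higher. The median log2 fold changes were 0.39 for set 1, -1.10 for set 2, 0.95 for set 3, -1.27 for set 4 and 0.67 for set 5, with 0.06 over all genes tested. The median of set 3 was 0.06 without non-pregnant BEND74, that of set 2 was -1.67 without non-pregnant BEND77, and that of set 1 ran from -0.09 without non-pregnant BEND75 to 0.70 without cyclic BEND05. The groups did not overlap in 4 members that were higher and 3 that were lower in non-pregnant heifers, beside 2.18% of all genes tested in either direction. ENSBTAG00000002527, ENSBTAG00000012589 and, with lower levels, ENSBTAG00000004976 and ENSBTAG00000009293 were among them. Without BEND74 the counts were 10 and 6, beside 7.53% and 4.73% of all genes tested, and without cyclic BEND05 they were 7 and 12, beside 5.79% and 7.41%.

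A test for any difference among the 3 groups called 0 members in edgeR, where 0.0623% of all genes tested were called, with a smallest FDR of a member of 0.122. At an unadjusted p under 0.05 it found 45 members, beside 12.5% of all genes tested. DESeq2 called 8 members for P vs. C, 3 higher and 5 lower in pregnant heifers, where it called 2.49% of all genes tested. It called 0 members for P vs. NP and for NP vs. C, where it called 0% and 0.374% of all genes. Its unadjusted p was under 0.05 for 47, 21 and 24 members in these comparisons, beside 15.5%, 6.97% and 8.41% of all genes. Limma-voom called 0 members in each, beside 0.0623%, 0% and 0.0623% of all genes, with an unadjusted p under 0.05 for 35, 16 and 17 members, beside 11%, 6.85% and 7.91%. The paper reports differentially expressed genes by DESeq2 in each of these comparisons, P vs. NP included. It also reports higher levels by qPCR in pregnant heifers for most of the genes it checked. Here DESeq2 was run on the 1606 genes kept by edgeR's filter, which the paper does not mention. The reason for the gap was not tested.

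The calls depended on the libraries that stood apart. Without non-pregnant BEND74, edgeR called 10 members for P vs. C, 6 of them in set 3, and 9 members for P vs. NP, 2 of them in set 3. In that fit 2.31% and 1.76% of the 1820 genes tested were called. Without both BEND74 and pregnant BEND76, it called 23 members for P vs. C, 11 of them in set 3, and 22 for P vs. NP, 10 of them in set 3, beside 4.03% and 5.25% of 1713 genes tested. Between non-pregnant and cyclic heifers these fits called 0 members and 0% of all genes, with 31 and 34 members at an unadjusted p under 0.05 in edgeR, beside 13% and 13.8% of all genes. Without cyclic BEND05, 2 members were called for P vs. C, both in set 2 and both lower in pregnant heifers, beside 0.572% of 1747 genes tested. The sets were formed from these same values. In set 3 BEND74 was high and BEND76 low, and in set 2 BEND05 was low. Leaving these libraries out was therefore bound to favour calls in those sets, and the calls there support nothing about them.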

How the data were processed

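Single-end reads were trimmed and filtered by quality with Prinseq, mapped with HISAT2 to the bovine assembly ARS-UCD1.2, sorted (SAMtools) and assigned to Ensembl gene models by htseq-count. The authors deposited the resulting raw counts, which are not normalized. The deposited tables of the authors' own comparisons (signal, log2 fold change, score, p-value and adjusted p-value) were not used. All 12 per-sample columns of the count table were used and grouped by the sample labels, and no batch is labelled. The p-values set differences between the groups against the spread between single heifers within the groups. CPM and sets were computed in Python 3.11.15, figures with matplotlib 3.10.9. Counts were tested in R 4.3.3 with edgeR 4.0.16 (filterByExpr defaults, TMM, 3 groups in 1 fit, Benjamini-Hochberg adjustment over all 1606 genes kept), and by DESeq2 1.42.0 and limma 3.58.1 with voom weights. The edgeR step was tested on simulated data. Intervals and limits for counts of 0 (3 counts) cover counting error only.

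The members, sets and gene lists were chosen with earlier results of these data known. Lists of pathway and cell type genes were not used, since no ID was paired with a symbol. Named are the 10 members with the highest ratio, the 3 most central of each set, the 3 with the highest and the 3 with the lowest between-group share, and the 2 genes on either side of the limit. Members called by edgeR in the fit of all 12 libraries were also to be named, and there were 0. Members called under alternatives are given as counts. Alternatives were other scalings, measures of variation, prior counts, correlations, linkages, distances, tests and filters, and leaving out each library in turn. Leaving out BEND74 and BEND76 together, and the set medians and group overlaps with libraries left out, were added after the data were seen.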

Additional observations from a re-analysis of the deposited data

Results flagged for a closer look

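In 13 of 99 comparisons of a library with its group of 4, the library stood apart by a gap above Dixon's 95% critical value. For measures not chosen for their variation, chance gives about 1 in 20. The 33 measures here were the set means, the share of counts on the members and the named members in the same 12 libraries. They are not independent, and the members were chosen for a high variation over these libraries, which favours libraries that stand apart, so the chance number is no yardstick for the 13.

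The mean of set 1 was 1.18 (log2 units) in cyclic BEND05, where the other cyclic libraries lay between -0.15 and -0.05. The mean of set 3 was -0.39 in pregnant BEND76, where the other pregnant libraries lay between 1.22 and 1.46.

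Pregnant BEND79 had a log2 CPM of 11.72 for ENSBTAG00000002527 (other pregnant libraries 7.17 to 7.69), of 12.20 for ENSBTAG00000025441 (8.16 to 8.68) and of 7.35 for ENSBTAG00000013411 (7.91 to 7.98). Non-pregnant BEND74 had 9.69 for ENSBTAG00000007554 (other non-pregnant libraries 4.59 to 4.84), 9.63 for ENSBTAG00000016546 (7.47 to 7.79) and 6.09 for ENSBTAG00000019278 (7.94 to 8.18). Cyclic BEND05 had 5.34 for ENSBTAG00000019244 (other cyclic libraries 9.05 to 9.64) and 9.44 for ENSBTAG00000013411 (6.85 to 7.18). Cyclic BEND03 had 9.53 for ENSBTAG00000009293 (8.59 to 8.63). Pregnant BEND78 had 8.05 for ENSBTAG00000019244 (5.41 to 5.58), and pregnant BEND76 had 6.76 for ENSBTAG00000003711 (8.44 to 8.76).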

How the results depend on the processing

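Of the 100 members, 96 stayed members with TMM scaling, 93 with DESeq2 size factors, 98 by the excess over counting error, 85 by the SD of log2 CPM and 88 to 92 with a library left out. The median between-group share was 32.9% to 33.5% with TMM or other prior counts, 29.9% to 43.1% with a library left out and 48.4% without BEND74 and BEND76. Complete linkage put 34 members in sets, and a distance of 0.5 gave 8 sets. By complete linkage 8 of 15, 4 of 14, 5 of 12, 6 of 11 and 0 of 7 members of sets 1 to 5 stayed together in a set, at a distance of 0.3 these were 13, 8, 9, 10 and 0, and by Spearman correlation 12, 11, 7, 9 and 2. TMM and DESeq2 scaling changed the sign of 1 and 2 of 60 set means. The log2 of a library's divisor changed by -0.10 to 0.11 and by -0.15 to 0.25, and its levels moved the opposite way.

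In place of 0 members called, RLE scaling gave 1 for P vs. C (0.249% of all genes called) and DESeq2 8 (2.49%). With no filter, among 15896 genes, edgeR called 32 members (P vs. C), 15 (P vs. NP), 13 (NP vs. C) and 40 (any difference), beside 0.981%, 0.346%, 0.333% and 1.21% of all genes. With a library left out it called 0 to 10, 0 to 9, 0 to 1 and 0 to 16, the highest without BEND74 (2.31%, 1.76% and 3.13% of all genes called for P vs. C, P vs. NP and any difference) except for NP vs. C (1 without BEND77, beside 0.233%), and without BEND76 it called 2 for P vs. C (0.4%). Without BEND74 and BEND76 it called 23 for P vs. C, 22 for P vs. NP and 29 for any difference (4.03%, 5.25% and 5.72%). With fewer heifers the filter kept more genes, and the cause of these differences was not tested. No paired analysis was possible because the labels give the heifers of different groups no shared number. At totals of 95618 to 160862 counts, levels of a few counts were measured imprecisely.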
